A study of Homo sapiens with 6 samples.

Results

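The genes described are 9 whose products restrain mTORC1 signalling, namely the sestrins SESN1, SESN2 and SESN3, DDIT4, DEPTOR, AKT1S1, CASTOR1, TSC1 and TSC2, together with MTOR, the kinase they act on. They were chosen by name, as the rows of the expression table that carry these 10 symbols among 19727 genes in all. The cells are DU145, a long-established line of human prostate cancer. Polyadenylated RNA was sequenced from 3 libraries of cells that carry the control vector lentivirus-NC (NC, of genotype normal) and from 3 libraries of cells that carry lentivirus-circCSPP1 and overexpress the circular RNA circCSPP1 (OE). The comparison asks which transcripts differ when circCSPP1 is overexpressed, with autophagy as the process of interest. Both groups are lentiviral lines, the OE group with another vector than the NC group, and no label says that the 3 libraries of a group came from separate cultures, so that p-values measure the spread between these libraries, which may be technical.

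mTORC1 is a protein kinase complex that promotes protein synthesis and holds back autophagy when amino acids, growth factors and energy are sufficient. Sestrins and CASTOR1 restrain it from the amino acid side by binding GATOR2, SESN1 and SESN2 as sensors of leucine and CASTOR1 as the sensor of arginine. DDIT4, also called REDD1, acts through the complex of TSC1 and TSC2, which switches off RHEB, the small GTPase that activates mTORC1. DEPTOR and AKT1S1, also called PRAS40, bind the mTOR complex itself. SESN2 and DDIT4 are known as stress-induced genes, and the integrated stress response factor ATF4 is among their known activators.

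The RefSeq promoter windows of GRCh38.p14, which run from 250 bases before the start of a transcript to 50 after it, were matched for 8 of the 10 genes and searched on both strands for 4 short motifs. AKT1S1 and DEPTOR were not among the matches. The composite element of ATF4 and C/EBP factors, searched as TGATGNAA, was found in the window of TSC2 and in 3.62% of all 35116 windows. The core of the hypoxia response element, ACGTG, was found in the windows of DDIT4 and TSC2 and in 21.4% of all windows. Neither the core of the cAMP response element, TGACGTNA, held by 3.01% of all windows, nor the FOXO element GTAAACA, held by 3.42%, was found in the windows of the 8 genes. The match of DDIT4 is shown because this gene had the highest level and one of the largest differences between the groups, and the match of TSC2 because its value differed little. Capitals mark the match, and each sequence lies upstream of a RefSeq start on the plus strand, at chr10:72273788-72273814 with its first matching base at position -125 for DDIT4 and at chr16:2047864-2047893 with its first matching base at position -110 for TSC2. In TSC2, matches to ACGTG on the plus and the minus strand overlap the composite element and begin at positions -113 and -114.
DDIT4: gaacgttgcttACGTGcgcccggagtc
TSC2: gccccgtcacgTGATGCAAggatcgccggc
These matches are letters in a sequence and were not measured as binding.

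The authors deposited FPKM values, which count fragments per length of transcript and per size of the library. The depth read from the steps between low FPKM values was 28900000 to 36400000 fragments in NC and 29000000 to 34700000 in OE, so that the groups overlapped in depth. CSPP1, the parent gene of the circular RNA, measured 9.11 to 10.1 FPKM in NC and 14.5 to 22.8 FPKM in OE, although FPKM per gene cannot tell the circle from the linear transcript. By qRT-PCR, the paper reports that its vectors changed the level of circCSPP1 and not that of CSPP1 mRNA. All 5 epithelial markers averaged at least 1 FPKM, at a sum of 2271 to 2361 FPKM in NC and 1046 to 1278 FPKM in OE, and KLK2 and KLK3, markers of luminal cells with androgen receptor, were at 0 in every library. The 5 fibroblast markers, with LUM at 0, summed to 2.77 to 4.19 FPKM in NC and 1.06 to 1.43 FPKM in OE, the 3 endothelial markers to at most 0.62 FPKM, and the 4 leukocyte markers, of which CD68 alone averaged at least 1 FPKM and CD3E was at 0, to 44.0 to 49.8 FPKM in NC and 35.9 to 50.4 FPKM in OE. The part of these differences in the results below was not tested. In this bulk RNA, fewer cells that express a gene and less RNA per cell cannot be told apart. OE replicate 1 stood apart from OE replicates 2 and 3: over 12305 genes, its departure from them followed the GC content of the transcript with a Spearman correlation of 0.784, where each NC library gave between -0.0565 and 0.0979. The same correlation, each library against the other two of its group, was -0.733 for OE replicate 2 and -0.482 for OE replicate 3. Values without OE replicate 1 are given beside many of the genes that it moved.

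SESN2 and DDIT4 were higher in OE, each by 2.50-fold in the mean FPKM, and DEPTOR was lower, at 0.531 of its NC mean. These 3 of the 10 genes had an adjusted p under 0.05 (limma on log2(FPKM + 1), with Benjamini-Hochberg adjustment over the 12322 genes that averaged at least 1 FPKM), 2 of them higher and 1 lower. Of all 12322 tested genes, 11.4% passed this threshold, 4.69% higher and 6.66% lower. All 10 genes passed the filter on low values. The study states a p under 0.01 together with a log2 difference of 1.5 in either direction, without saying whether that p was adjusted. Taken as an unadjusted p, these thresholds were reached by 0 of the 10 genes, whose largest log2 difference was 1.31, and by 0.195% of all tested genes. The median log2 difference of the 10 genes was 0.091, and that of all tested genes -0.028. The values of NC and OE did not overlap in 5 of the 10 genes, against 36.4% of all tested genes. OE lay above NC in 3 of them (16% of all) and below in 2 (20.5% of all), and an unadjusted limma p under 0.05 was found for the same number of the 10 and for 28.2% of all. With 3 libraries a group, the smallest p of a two-sided exact permutation test is 0.10.

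**Figure D1:**
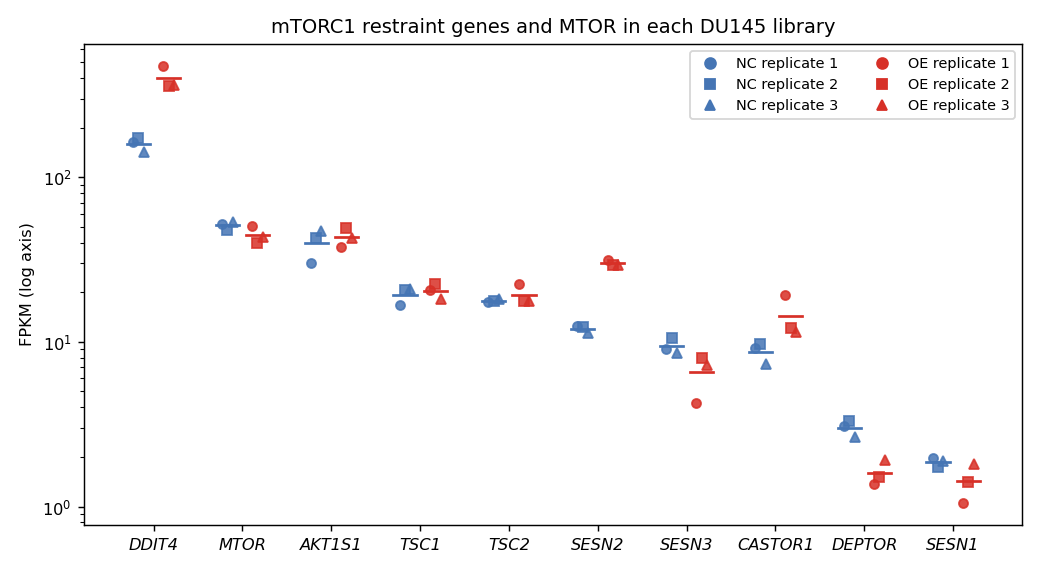
FPKM (log axis) of the 10 genes in each library, ordered by their NC mean, with NC in blue, OE in red, a marker shape for each replicate and a line at the group mean. DDIT4 and SESN2 lie higher in all 3 OE libraries, DEPTOR lies lower in all 3, and the 2 groups overlap for AKT1S1, TSC1, TSC2, MTOR and SESN1.

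SESN2 (ENSG00000130766), the stress-induced member of the sestrin family, lies on the plus strand of chromosome 1 (28259527 to 28282491, GRCh38) and has 1 transcript, of 3453 nt, in GENCODE release 29. Its values were 12.5, 12.3 and 11.3 FPKM in NC replicates 1, 2 and 3, and 31.6, 29.3 and 29.2 FPKM in OE replicates 1, 2 and 3. The 3 OE libraries were all above the 3 NC libraries, and they were close to each other, with OE replicate 1 only slightly higher. NC averaged 12.01 ± 0.628 and OE 30.02 ± 1.40 FPKM (SD, n = 3 in each group). On the log2 scale the difference was 1.25 (SE 0.094, limma adjusted p = 0.0013), larger than the spread between replicates. Over 18 alternatives it ranged from 1.21 to 1.32, with an adjusted p of at most 0.014, and was 1.22 without OE replicate 1. At the depth of these libraries, the FPKM values correspond to 1224 to 3551 fragments on the transcript per library.

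SESN3 (ENSG00000149212), the sestrin known as a target of FOXO factors, moved the other way without passing the test. It lies on chromosome 11 from 95165513 to 95232541 on the minus strand and has the lowest transcript GC content of the 10 genes, 37.1%. Its values were 9.03, 10.6 and 8.60 FPKM in NC and 4.27, 8.03 and 7.29 FPKM in OE, in the order of the replicates. No OE library reached the lowest NC library, but OE replicate 1 was far below the other two. The log2 difference was -0.50 (95% interval -0.99 to -0.011, limma adjusted p = 0.17), and it was -0.26 without OE replicate 1 (adjusted p = 0.12). After a correction of each library for GC content and length it was -0.45, with an adjusted p of 0.012. That correction called 1813 genes higher and 1707 lower of 12305, against 578 and 821 of 12322 without it.

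SESN1 (ENSG00000080546), known as a target of p53, was the lowest of the 10 genes. The gene lies on chromosome 6 from 108986437 to 109094819 on the minus strand. It measured 1.98, 1.75 and 1.89 FPKM in NC and 1.05, 1.40 and 1.81 FPKM in OE, about 120 to 241 fragments per library on its longest coding transcript. OE replicate 3 lay within the NC range, and OE replicate 1 was again the lowest. The log2 difference of -0.26 (95% interval -0.58 to 0.062, limma adjusted p = 0.27) did not pass the test, and it was -0.15 without OE replicate 1 (adjusted p = 0.37). With a pseudocount of 0.01 it was -0.43 (adjusted p = 0.28).

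FPKM is scaled by transcript length, so the sestrins can be compared within a library, but it is not scaled by GC content. The GC content is 59.5% for SESN2, 43.4% for SESN1 and 37.1% for SESN3, and the OE libraries departed from each other with GC content. The sums and shares were not computed after the GC correction, and OE replicate 1 gave the highest SESN2 share. Together the sestrins summed to 23.5, 24.6 and 21.8 FPKM in NC and to 37.0, 38.7 and 38.3 FPKM in OE. SESN2 made up 53.1, 49.9 and 51.8% of that sum in the NC libraries and 85.6, 75.6 and 76.2% in the OE libraries, while SESN3 went from 40.3% ± 2.38 to 17.1% ± 4.89 (SD, n = 3 in each group). Neither the sum nor the share of SESN2 overlapped between the groups (exact two-sided permutation test, p = 0.10 for each, the smallest that this design allows). SESN2 was the most abundant sestrin transcript in every library, by a wider margin in OE than in NC.

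**Figure D2:**
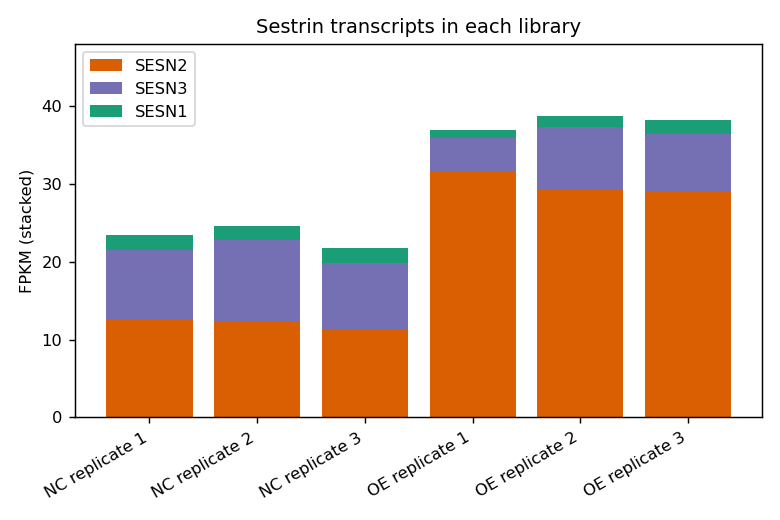
Stacked FPKM of SESN2, SESN3 and SESN1 in each library. The sum is 21.8 to 24.6 FPKM in the NC libraries and 37.0 to 38.7 FPKM in the OE libraries, and the SESN2 part grows from 11.3 to 12.5 FPKM in NC to 29.2 to 31.6 FPKM in OE.

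CASTOR1 (ENSG00000239282), the arginine sensor, lies on chromosome 22 from 30285117 to 30289627 on the minus strand and has the highest transcript GC content of the 10 genes, 61.7%. It measured 9.18, 9.71 and 7.35 FPKM in NC and 19.3, 12.2 and 11.5 FPKM in OE. All OE libraries were above all NC libraries, and OE replicate 1 stood far above the rest. Between the means of the groups the log2 difference was 0.63 (95% interval 0.15 to 1.10, limma adjusted p = 0.090), which missed the threshold. It was 0.41 without OE replicate 1 (adjusted p = 0.052) and 0.64 with the correction for GC content and length (adjusted p = 0.015). With the correction, 1813 of all genes were called higher and 1707 lower, against 578 and 821 without it. AC004997.1, a gene annotated as protein-coding that shares 46.0% of the exonic bases of CASTOR1 on the same strand, was listed at 0 in every library. Fragments of the shared exons were thus not listed under AC004997.1. Whether they were counted for CASTOR1 or left out is not given in the sources used here.

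DDIT4 (ENSG00000168209), the stress-induced activator of the TSC complex, was the highest of the 10 genes in every library. It lies on chromosome 10 from 72273920 to 72276036 on the plus strand. It measured 163, 174 and 143 FPKM in NC and 476, 358 and 366 FPKM in OE. Every OE library exceeded every NC library, and OE replicate 1 was the highest. NC averaged 160.1 ± 15.96 and OE 399.9 ± 65.8 FPKM (SD, n = 3 in each group), a log2 difference of 1.31 (SE 0.13, limma adjusted p = 0.0027), larger than the spread between replicates. Over the 18 alternatives it lay between 1.18 and 1.38 with an adjusted p of at most 0.032, and without OE replicate 1 it was 1.18. In the order of the log2 differences of all tested genes, from the highest down, DDIT4 was at position 19 and SESN2 at position 29. An antisense gene, DDIT4-AS1, covers 41.2% of the exonic bases of DDIT4, and because the strand setting of the counting is not given in the sources used here, fragments of the 2 genes cannot be told apart.

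The level of DDIT4 relative to SESN2 overlapped between the groups. The ratio of their FPKM was 13.1, 14.2 and 12.6 in NC and 15.0, 12.2 and 12.5 in OE, with means of 13.3 ± 0.796 and 13.3 ± 1.54 (SD, n = 3 in each group; exact two-sided permutation test, p = 0.90). DDIT4 against TSC2, the complex through which it acts, went from a ratio of 9.01 ± 0.997 to 20.6 ± 0.593 (SD, n = 3 in each group), and the groups did not overlap (exact permutation p = 0.10).

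TSC1 and TSC2, whose proteins form the complex that inactivates RHEB, did not pass the test. TSC1 (ENSG00000165699) on chromosome 9 (132891348 to 132946874, minus strand) measured 16.7, 20.7 and 20.9 FPKM in NC and 20.8, 22.5 and 18.1 FPKM in OE. For TSC2 (ENSG00000103197) on chromosome 16 (2047465 to 2089487, plus strand) the values were 17.5, 17.8 and 18.1 FPKM in NC and 22.4, 17.8 and 17.9 FPKM in OE. The groups overlapped for both genes, and for TSC2 OE replicate 1 alone was above the NC libraries. The log2 differences were 0.074 (95% interval -0.23 to 0.38, adjusted p = 0.76) and 0.11 (95% interval -0.16 to 0.38, adjusted p = 0.59) in limma, so that at most a difference of 0.38 on the log2 scale lies within either interval. Without OE replicate 1 the log2 difference of TSC2 was 0.0033 and that of TSC1 0.061. The ratio of TSC1 to TSC2 was 1.09 ± 0.118 in NC and 1.07 ± 0.173 in OE (SD, n = 3 in each group; exact permutation p = 0.90).

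DEPTOR (ENSG00000155792), an inhibitor bound to mTOR itself, was the gene that fell. It lies on chromosome 8 from 119873717 to 120050913 on the plus strand. It measured 3.08, 3.31 and 2.65 FPKM in NC and 1.38, 1.51 and 1.91 FPKM in OE. Every OE library was below every NC library, with 3.01 ± 0.335 FPKM in NC and 1.60 ± 0.276 FPKM in OE (SD, n = 3 in each group). This gave a log2 difference of -0.63 (SE 0.13, limma adjusted p = 0.022), a scale that understates the change of a gene at this low level, and it was -0.92 with a pseudocount of 0.01. With about 115 to 248 fragments per library on its longest coding transcript, the call was less firm than those of SESN2 and DDIT4. The adjusted p was 0.095, 0.10 and 0.058 without NC replicates 1, 2 and 3, 0.051 without OE replicate 2 and 0.020 without OE replicate 1, with a log2 difference between -0.57 and -0.71 in the 6 fits without 1 library. The adjusted p was 0.058 with no moderation and 0.053 with the replicate block.

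AKT1S1 (ENSG00000204673), the other inhibitor bound to the complex, lies on chromosome 19 from 49869033 to 49878459 on the minus strand and varied more among the NC libraries than between the groups. It measured 30.2, 42.7 and 47.3 FPKM in NC and 37.7, 49.2 and 43.1 FPKM in OE. Replicate 1 was the lowest of each group. The log2 difference was 0.13 (95% interval -0.29 to 0.54, limma adjusted p = 0.70), and it was -0.060 without NC replicate 1.

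MTOR (ENSG00000198793) on chromosome 1 (11106535 to 11262507, minus strand) measured 52.1, 47.6 and 53.7 FPKM in NC and 50.5, 40.0 and 43.4 FPKM in OE. OE replicate 1 lay within the NC range, and the other OE libraries were below it. For MTOR the log2 difference was -0.20 (95% interval -0.45 to 0.059, limma adjusted p = 0.29), and -0.29 without OE replicate 1 (adjusted p = 0.035), the only alternative in which MTOR passed the threshold. Without OE replicate 1, 1624 of all tested genes were called higher and 1888 lower, against 578 and 821 with all 6 libraries. The ratio of DEPTOR to MTOR was 0.0593 ± 0.0101 in NC and 0.0364 ± 0.0085 in OE (SD, n = 3 in each group), with groups that did not overlap (exact permutation p = 0.10), and the ratio of AKT1S1 to MTOR overlapped between the groups (exact permutation p = 0.40).

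**Figure D3:**
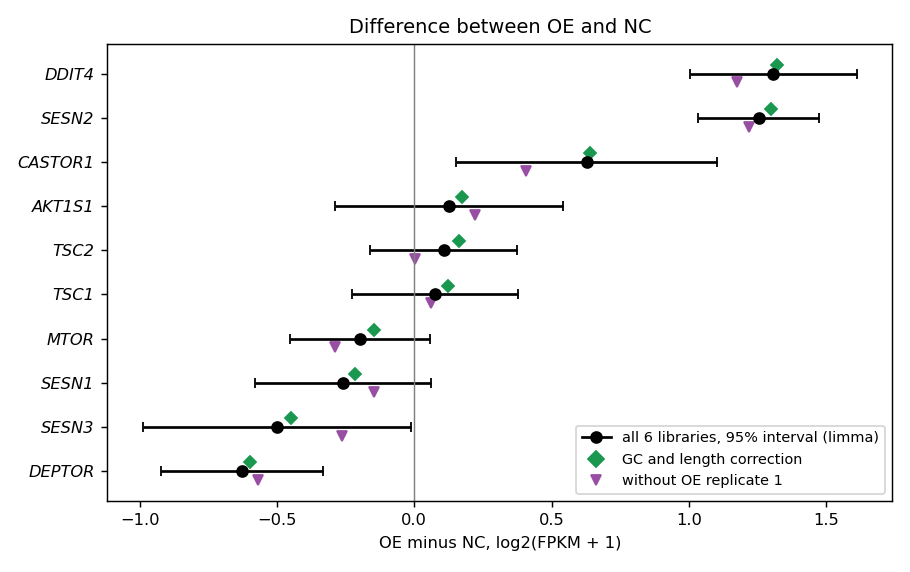
Difference between OE and NC on the log2(FPKM + 1) scale for each gene, with the 95% interval from limma over all 6 libraries (black), the value after the correction for GC content and length (green) and the value without OE replicate 1 (purple). SESN2 and DDIT4 stay above 1 in each, DEPTOR stays between -0.63 and -0.57, and the intervals of AKT1S1, TSC1, TSC2, MTOR and SESN1 include 0.

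In NC, the order of the levels in FPKM was DDIT4, MTOR, AKT1S1, TSC1, TSC2, SESN2, SESN3, CASTOR1, DEPTOR and SESN1, and the ranges of the neighbours overlapped for TSC1 with TSC2 and for SESN3 with CASTOR1. In OE, SESN2 stood above TSC1 and TSC2, at rank 4 in place of 6, and CASTOR1 stood above SESN3. The ranges of neighbours in OE overlapped for MTOR with AKT1S1, TSC1 with TSC2, TSC2 with CASTOR1 and DEPTOR with SESN1. The replicates of OE scattered more than those of NC: the median coefficient of variation over all tested genes was 6.22% in NC and 14.8% in OE. SESN2 was the exception among the sestrins, with 5.23% in NC and 4.67% in OE, where SESN1 had 26.8% and SESN3 30.5% in OE. CASTOR1 had 30.2% in OE.

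The departure of OE replicate 1 from OE replicates 2 and 3 differed between the 10 genes in the same direction as over the genome. It was most negative for SESN3, at -0.72 on the log2(FPKM + 1) scale, and most positive for CASTOR1, at 0.66, and across the 10 genes its Spearman correlation with GC content was 0.745, a description of points that share the same libraries. AKT1S1 did not follow this order, with a GC content of 60.4% and a departure of -0.28. For SESN2 the departure was 0.11 and for DDIT4 0.39, against log2 differences between the groups of 1.25 and 1.31. After the correction for GC content and length, the log2 differences between the groups were 1.30 for SESN2, 1.32 for DDIT4 and -0.60 for DEPTOR (adjusted p = 2.1e-04, 3.1e-04 and 0.0079 from limma).

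**Figure D4:**
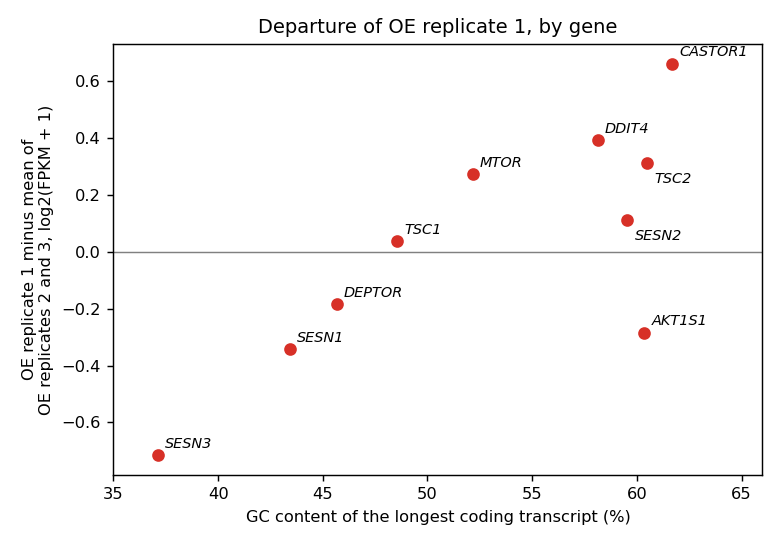
Departure of OE replicate 1 from the mean of OE replicates 2 and 3 on the log2(FPKM + 1) scale, against the GC content of the longest coding transcript, 1 point per gene. SESN3 (37.1% GC) is lowest at -0.72, CASTOR1 (61.7% GC) is highest at 0.66, and AKT1S1 (60.4% GC) lies below 0.

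The other genes of the pathway were taken from 8 lists by role, with 86 genes in the table and 85 tested. Of these, 12 rose and 3 fell at an adjusted p of 0.05 (17.6%, against 11.4% of all tested genes), and their median log2 difference was 0.066. The list of regulators held 7 of these calls among its 16 tested genes, and the other lists held 8 among 69. The lists were chosen with earlier results of these data known, so that these shares describe the lists and do not test them. None of the 6 partners of mTOR in its 2 complexes, of the 7 genes of GATOR1 and KICSTOR, which hold mTORC1 off when amino acids are low, or of the 5 genes of GATOR2, the complex that sestrins and CASTOR1 bind, passed the test in limma. An unadjusted p under 0.05 was found for 2, 0 and 0 of these genes, and for 28.2% of all tested genes. The ordinary fit without moderation called 0 in each list, against 381 higher and 453 lower of all 12322 tested genes. The correction for GC content and length gave 1, 0 and 2 calls, against 1813 higher and 1707 lower of 12305 genes. RPTOR, the scaffold that defines mTORC1, measured 29.3 to 29.6 FPKM in NC and 36.9, 28.7 and 28.6 FPKM in OE, a log2 difference of 0.081 (adjusted p = 0.71).

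Among 4 partners of RHEB and TSC, RHEBL1, a relative of RHEB, rose from 6.55 ± 0.925 to 10.1 ± 0.680 FPKM (SD, n = 3 in each group), a log2 difference of 0.56 (limma adjusted p = 0.031). DDIT4L, the paralog of DDIT4, fell from 1.73, 2.15 and 1.39 FPKM in NC to 0.69, 0.92 and 1.03 FPKM in OE, a log2 difference of -0.55 (adjusted p = 0.046) that was -0.99 with a pseudocount of 0.01. This call did not hold in any of the 6 fits without 1 library (adjusted p from 0.052 to 0.16), nor with quantile normalization (0.083), no moderation (0.11) or the replicate block (0.075), and the log2 difference stayed below 0 in each. RHEB itself measured 91.3 to 101 FPKM in NC and 81.8, 116 and 108 FPKM in OE (log2 difference 0.085, limma adjusted p = 0.73). OE replicate 1 lay below the NC range and the other OE libraries above it, and without OE replicate 1 the log2 difference was 0.23, which passed the threshold (adjusted p = 0.046). In that fit 1624 of all tested genes were called higher and 1888 lower, against 578 and 821 with all 6 libraries.

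Of all tested genes, 4.69% rose and 6.66% fell. Of 17 tested genes of the Rag GTPases, Ragulator and amino acid sensing, 1 rose. This was LARS, the cytosolic leucyl-tRNA synthetase, from 95.8, 98.2 and 96.5 FPKM in NC to 116, 168 and 149 FPKM in OE (log2 difference 0.55, adjusted p = 0.039). RRAGD, a Rag GTPase, measured 1.88 to 2.55 FPKM in NC and 2.12 to 3.19 FPKM in OE (adjusted p = 0.45). Of 15 upstream kinases and phosphatases 1 rose: STK11, the kinase LKB1 upstream of AMPK, measured 27.7, 29.7 and 26.2 FPKM in NC and 51.1, 35.04 and 41.4 FPKM in OE (log2 difference 0.58, adjusted p = 0.041). OE replicate 1 was the lowest OE library for LARS and the highest for STK11, and without it the log2 differences were 0.70 (adjusted p = 0.0021) and 0.44 (adjusted p = 0.020).

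Of 15 substrates and effectors 4 rose and 0 fell, against 4.69% and 6.66% of all tested genes, in a list chosen with earlier results known. EIF4EBP1, the translation repressor that mTORC1 inactivates, rose from 141 ± 3.04 to 237 ± 30.9 FPKM (SD, n = 3 in each group), a log2 difference of 0.74 (SE 0.10, limma adjusted p = 0.0068). GRB10, an adaptor that mTORC1 phosphorylates and that dampens insulin signalling, had a log2 difference of 0.61 (adjusted p = 0.0089). For LARP1, which binds mRNAs of the translation machinery, it was 0.57 (adjusted p = 0.0049), and for TFE3, a transcription factor of lysosomal genes that mTORC1 keeps in the cytoplasm, 0.44 (adjusted p = 0.028). In all 4 the OE libraries were above the NC libraries. The calls of GRB10 and TFE3 did not hold in every limma fit without 1 library (highest adjusted p = 0.059 and 0.13).

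Of 16 tested genes in a list of regulators of sestrins and DDIT4 and of genes linked to them, such as TSC22D3, 5 rose and 2 fell. Of all tested genes, 4.69% rose and 6.66% fell, and the list was chosen with earlier results known. A place in the list does not mean that a gene acts upstream of the sestrins or DDIT4. TP63 was below the filter. ATF4 measured 301, 302 and 286 FPKM in NC and 392, 380 and 396 FPKM in OE (log2 difference 0.40, limma adjusted p = 0.011). DDIT3, which encodes CHOP, had the largest log2 difference of the lists on the log2(FPKM + 1) scale, 1.61, from 24.5 ± 3.64 to 76.4 ± 7.98 FPKM (SD, n = 3 in each group, adjusted p = 0.0015). NUPR1, a stress-induced factor, rose from 0.99 to 1.25 FPKM in NC to 3.03 to 3.62 FPKM in OE (log2 difference 1.09, adjusted p = 0.0033). With a pseudocount of 0.01 the log2 difference was 1.66 for NUPR1 and 1.65 for DDIT3. TSC22D3, the glucocorticoid-induced GILZ gene, had a log2 difference of 1.22 (adjusted p = 0.0023), and NFE2L2, which encodes NRF2, of 1.09 (adjusted p = 0.029), with NC replicate 2 apart at 43.3 FPKM from 24.7 and 22.5 FPKM in the other NC libraries.

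HIF1A and EPAS1, which encode the hypoxia factors, were lower in OE. HIF1A, a known activator of DDIT4, fell from 131, 135 and 134 FPKM in NC to 71.0, 96.2 and 94.1 FPKM in OE (log2 difference -0.62, limma adjusted p = 0.021), and EPAS1 fell from 52.1 ± 2.23 to 31.4 ± 1.77 FPKM (SD, n = 3 in each group; log2 difference -0.71, adjusted p = 0.0049). Without OE replicate 1, the lowest library for HIF1A, its log2 difference was -0.48 (adjusted p = 0.0022). These are differences between the 2 groups, and a relation of the hypoxia factors to the level of DDIT4 was not tested. The protein levels of these factors were not measured in these libraries.

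Several calls of single pathway genes were lost when 1 library was left out. DDIT3, TSC22D3, NUPR1, EPAS1, EIF4EBP1 and LARP1 had an adjusted p under 0.05 in each fit without 1 library. Of the 15 calls, 9 were lost without NC replicate 1, 8 without NC replicate 2, 8 without NC replicate 3 and 8 without OE replicate 3, against 3 without OE replicate 2 and 1, that of DDIT4L, without OE replicate 1. The highest adjusted p in these fits was 0.14 for RHEBL1, 0.16 for DDIT4L, 0.14 for LARS, 0.15 for STK11, 0.13 for TFE3, 0.059 for GRB10, 0.11 for NFE2L2, 0.094 for HIF1A and 0.069 for ATF4. The fit with no moderation also lost the calls of TFE3 (adjusted p = 0.061), RHEBL1 (0.070), HIF1A (0.086), DDIT4L (0.11), STK11 (0.13), NFE2L2 (0.13) and LARS (0.13). None of the 15 log2 differences turned its sign in any alternative run.

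**Figure D5:**
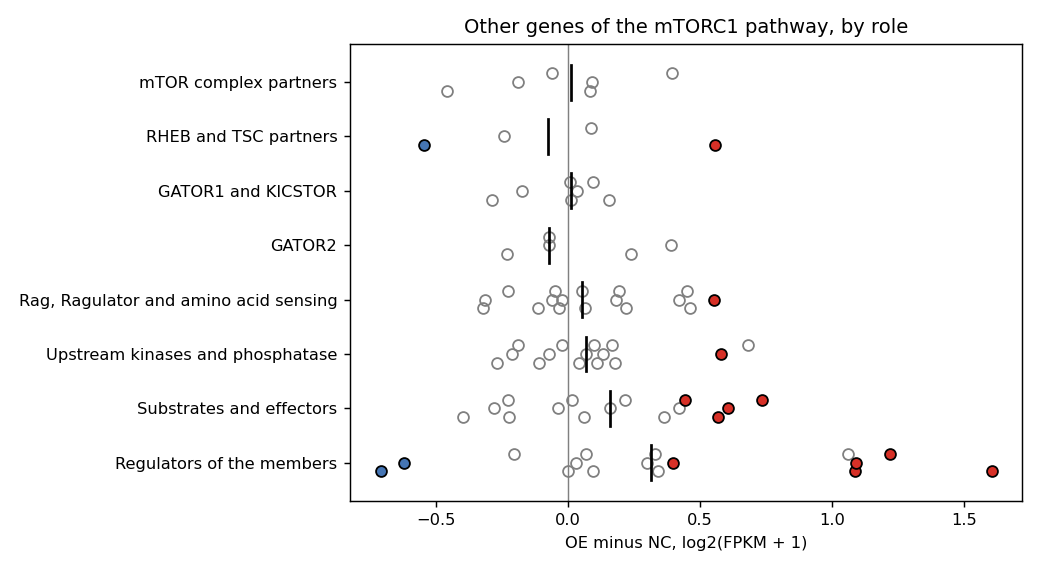
Difference between OE and NC on the log2(FPKM + 1) scale for the 85 tested pathway genes, by list, with filled points for an adjusted p under 0.05 (red higher, blue lower), open points for the others and a black line at the median of each list. The filled points are 12 higher and 3 lower genes, 7 of them among the regulators and none among the mTOR complex partners, GATOR1 and KICSTOR, or GATOR2.

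The genes whose profile over the 6 libraries lay closest to a called gene were found by the Euclidean distance on log2(FPKM + 1), after subtracting each gene's mean. For SESN2 they were TPRA1 (distance 0.12), DUSP5 (0.14) and SLC1A4 (0.15). For DDIT4 they were NEURL1 (0.17), EGR1 (0.21) and DUSP5 (0.23). For DEPTOR they were CPLX1 (0.10), CRISPLD2 (0.12) and OST4 (0.14). The likeness rests on the difference between the groups and on the departure of single libraries, which many genes share.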

How the data were processed

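The authors deposited 1 table of FPKM values for 6 libraries (paired-end sequencing of polyadenylated RNA, NovaSeq), rounded to 2 decimals. The submitters' processing notes name hg38; the aligner, counting program and annotation are not given in the sources used here. Columns were matched to samples by group and replicate number, and 0 columns were left unused. Depth was read from genes with a single transcript under 800 nt, for which FPKM multiplied by length fell within 0.15 of whole multiples of 1 fragment for 92.5% to 98.1% of 50 to 63 values per library (30% by chance).

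Values were taken to log2(FPKM + 1), and the 12322 genes averaging at least 1 FPKM went into limma (version 3.58.1 in R 4.3.3, eBayes with a trend, no covariate, two-sided, Benjamini-Hochberg adjustment over all tested genes). The paper names only a general 2-sample test, so an ordinary fit without moderation was an alternative. On simulated data, in which 198 of 12306 genes differed by 1 on the log2 scale, the fit recovered 100% and called 0.149% of the 12108 others. The simulation gave both groups the same dispersion and no shift of a library with GC content. The OE libraries differ from it in both respects, so that these rates need not hold for the real data. Transcript lengths, GC content and coordinates came from GENCODE release 29 (GRCh38) by Ensembl identifier, for 19674 of 19727 genes; the correction fitted the departure of each library from the gene mean by loess (span 0.3) on GC content and log2 length.

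The 18 alternatives were quantile normalization, median-ratio scaling, TPM, a pseudocount of 0.1 or 0.01, no filter, a mean of at least 5 FPKM, robust eBayes, no moderation, a replicate block, the correction with and without that block, and leaving out each of the 6 libraries. The genes and lists were chosen with earlier results of these data known. Named pathway genes were those with an adjusted p under 0.05 and groups that did not overlap, at most 6 a list, with RPTOR, RHEB, RRAGD, STK11, EIF4EBP1 and ATF4. Figures were drawn with matplotlib 3.10.9 and permutation tests run with scipy 1.17.1. The study's other assays were not analysed here.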

Additional observations from a re-analysis of the deposited data

How the results depend on the processing

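The calls of SESN2 and DDIT4 held in all 18 alternatives, and DEPTOR was called in 11 of the 17 that tested it. For the 10 genes, the count lower in OE, 1 as reported, was 0 with a mean of at least 5 FPKM, which leaves DEPTOR untested, 0 with no moderation, 0 with the replicate block, 2 with the correction for GC content and length, 2 with that correction and the replicate block together, and 0 to 2 without 1 library. The count higher, 2 as reported, was 3 with the correction, alone or with the block. Of the pathway genes, 12 higher and 3 lower as reported, 24 were higher and 6 lower with the correction, 20 were higher with the correction and the block, 8 were higher and 1 lower with no moderation, and 5 to 27 were higher and 1 to 8 lower without 1 library. Of all tested genes, 578 higher and 821 lower as reported, 541 were lower with a mean of at least 5 FPKM, 381 higher and 453 lower with no moderation, 364 higher and 559 lower with the block, 1813 higher and 1707 lower with the correction, and 1390 higher and 1344 lower with both. Without 1 library, 146 to 1624 were higher and 154 to 1888 lower, fewest without NC replicate 1 and most without OE replicate 1. Calls higher made up 41.3% as reported and 51.5% with the correction. The log2 difference turned its sign for AKT1S1 without NC replicate 1 (-0.060, range without 1 library up to 0.26), TSC1 without NC replicate 1 (-0.027, up to 0.16), RPTOR without OE replicate 1 (-0.038, up to 0.14) and RHEB without OE replicate 2 (-0.013, up to 0.23). The cause of these changes was not tested. Of 499 values of single genes, 430 kept direction and side of the threshold, 59 lost and 6 gained the call, and the 4 above reversed. The replicate numbers were not taken to pair the libraries, since the correlations of the deviations of same-numbered libraries (0.073, 0.0065 and 0.057) were low. NC replicates 1 and 3 correlated best with the OE library of the same number, and NC replicate 2 with OE replicate 3 (0.0090).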
